A study of Solanum lycopersicum with 8 samples.

Results

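The genes described here are 4 small heat shock protein genes of tomato that are not cytosolic class I or class II, taken by ID with the version suffix dropped: Solyc03g082420, Solyc05g014280, Solyc08g078700 and Solyc11g020330. They are 4 of the 29345 genes listed in each table, and all 4 were found in all 8 libraries. Small heat shock proteins outside those classes include forms of the chloroplast, the mitochondrion, the endoplasmic reticulum and the peroxisome. The tables do not pair IDs with names, so the class of each gene rests on published tomato nomenclature, could not be checked against an annotation, and no compartment is given to a single ID. Expression was measured in young leaves and in anthers of several developmental stages from 8-week-old tomato plants, cultivar Moneymaker. Growth was in a glasshouse, with days of 16 h at 24 °C and nights of 8 h at 20 °C. One genotype was wild type (WT), and the other was labelled A2AS, which is known from the study as a transgenic tomato with suppressed HsfA2. Heated plants of both genotypes spent 1 h at 39 °C in a growth chamber at 120 μmol m-2 s-1 of light and then recovered for 1.5 h at 24 °C, while the labels do not describe how control plants were handled. The 8 groups, 1 for each tissue, genotype and treatment, held 1 library each, and the labels give neither the number of plants in a library nor the number of A2AS lines.

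Small heat shock proteins bind proteins that unfold under heat and keep them from aggregating, without using ATP. ATP-dependent chaperones such as HSP70 and the HSP100 disaggregases then refold the bound proteins. In plants the family has cytosolic classes and members that carry a targeting sequence into an organelle, and these genes are typical targets of heat stress transcription factors (Hsfs). HsfA2 is an Hsf that is itself made under heat and maintains the response, and developing anthers are known as one of the most heat-sensitive plant tissues.

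The assay, massive analysis of cDNA ends, counts reads from the 3′ end of polyadenylated RNA, and levels are in CPM (reads scaled to the same total in each library), with no gene length term because reads come from transcript ends. Read totals were inferred from the step between values, taken as 1 read. They came to 6243965 in heated A2AS leaf and 11534512 to 14764187 elsewhere, so 3 reads were worth 0.203 to 0.480 CPM. The listed genes held 71.1% to 73.4% of the total in leaf and 69.2% to 69.4% in anthers. Brackets hold exact 95% intervals for counting error only. HsfA2, the gene that the A2AS plants target, stood at 10.3 and 21.7 CPM in control and heated WT leaf and at 2.25 and 2.72 CPM in A2AS leaf. In anthers it stood at 1.93 and 22.3 CPM in WT and at 1.08 and 39.3 CPM in A2AS. The heated anther library labelled A2AS thus held more HsfA2 than the WT one. This is called here against its label, which stands for suppressed HsfA2, and values resting on that library carry that limit. Strand use was not given, so whether reads of the transgene count towards this value was not tested. In control anthers HsfA2 rested on 24 reads in WT (1.24 to 2.88 CPM) and 16 in A2AS (0.619 to 1.76 CPM). These intervals overlap, so suppression in control A2AS anthers is not shown either. All 5 anther markers were detected in every anther library, with a summed level of 383 to 625 CPM, against 4.51 to 6.71 CPM in leaf, where MS32 was at 0 in control A2AS. The 3 small subunit genes of Rubisco, the leaf markers, summed to 13678 to 38082 CPM in leaf and 1967 to 2776 CPM in anthers. In bulk tissue, fewer cells of a type and less RNA per cell cannot be told apart.

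In CPM each of the 4 genes stood higher in every heated library than in any control library. The share of all genes with such a separation was not counted. The 4 genes divided the response between the tissues in different ways. Solyc03g082420 was the most abundant of the 4 in WT leaf. It stood at 242 CPM (233 to 251) in control and 4221 CPM (4187 to 4255) in heated WT leaf, where it ranked 7 among 23748 genes with a value above 0. In A2AS leaf it stood at 25.8 CPM in control and 741 CPM after heat. In anthers it stood at 25.9 and 1327 CPM in control and heated WT, and at 24.2 and 1393 CPM in the libraries labelled A2AS. The lowest heated library therefore lay above the highest control library (741 against 242 CPM), and the 3 control libraries other than WT leaf followed each other with ratios whose intervals include 1.

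Solyc05g014280 was abundant in heated leaf and far lower in heated anthers, where it still rose. It stood at 52.8 CPM in control and 1608 CPM in heated WT leaf, and at 11.0 and 1101 CPM in A2AS leaf. In anthers it stood at 11.4 and 57.4 CPM in control and heated WT, and at 9.35 and 112 CPM in those labelled A2AS. In CPM heated and control libraries did not overlap, but only just: heated WT anther was 1.09-fold (0.977 to 1.21) above control WT leaf. Median-ratio scaling divides the first by 1.13 and the second by 0.943, which reverses their order. Within the heated libraries both leaf values lay far above both anther values.

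Solyc08g078700 and Solyc11g020330 had the opposite order, with heated anthers above heated leaf. Solyc08g078700 stood at 72.7 and 397 CPM in control and heated WT leaf, and at 10.4 and 193 CPM in A2AS leaf. It reached 1336 CPM in heated WT anthers from 20.9 CPM, and 1388 CPM in heated anthers labelled A2AS from 40.9 CPM. No neighbouring libraries in its order had a ratio whose interval includes 1. Solyc11g020330 stood at 53.9 and 596 CPM in control and heated WT leaf, and at 11.6 and 307 CPM in A2AS leaf. It was the most abundant of the 4 in both heated anther libraries, going from 11.5 to 1745 CPM in WT and from 13.4 to 1639 CPM in those labelled A2AS. In 4 of the 8 libraries the value of Solyc11g020330 contained a fraction of 0.5 read (within 0.1 read), which was not seen for the other 3 genes. The sources used here do not say how reads that match several genes were treated.

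**Figure D1:**
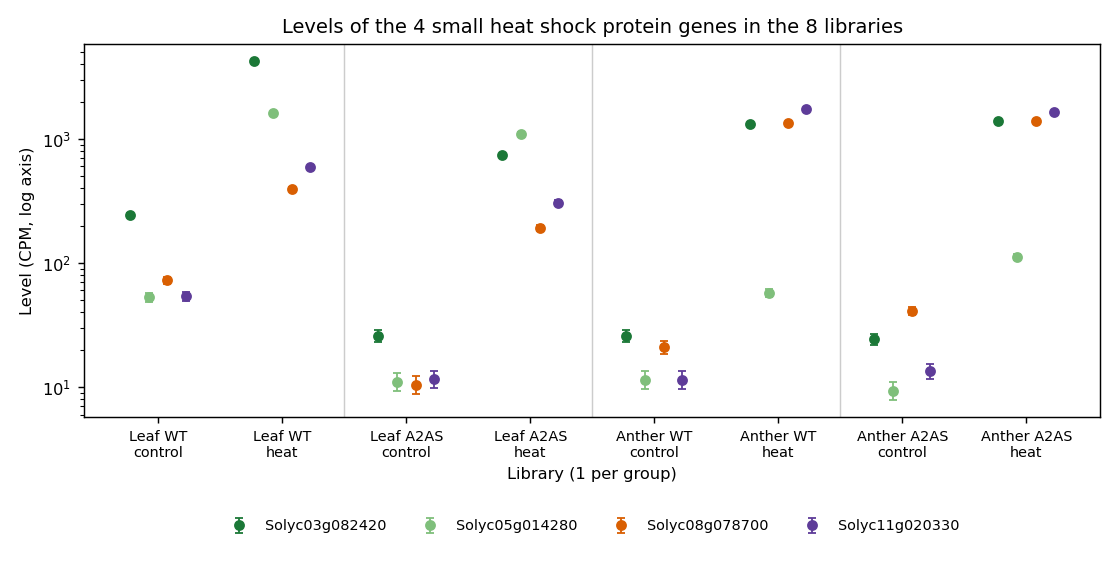
Level of each gene in CPM (log axis) in the 8 libraries, 1 per group, with exact 95% counting intervals as bars. In CPM every heated value of a gene lies above all its control values, which for Solyc05g014280 does not hold under median-ratio scaling. Solyc05g014280 is the lowest of the 4 in heated anthers (57.4 and 112 CPM), and WT leaf is the highest control library for each gene.

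Heat was followed by a rise of all 4 genes. In each of the 4 heat-control pairs all 4 were at least 2-fold higher (with a pair mean of 10 CPM or more), against a background of 4.39% of genes in WT leaf, 2.83% in A2AS leaf, 2.81% in WT anthers and 2.42% in anthers labelled A2AS. All 4 were also at least 4-fold higher in each pair, a limit at which the share of all genes was not counted. The median log2 ratio of the 4 was 3.78 in WT leaf and 4.70 in A2AS leaf, 5.78 in WT anthers and 5.42 in anthers labelled A2AS. The median of all genes was 0.10, 0.0066, 0.067 and 0.044 in the same order, and scaling by median ratios shifted it by −0.16, −0.065, −0.12 and −0.12. In WT leaf the ratios ran from 5.47-fold (5.08 to 5.89) for Solyc08g078700 to 30.5-fold (28.1 to 33.1) for Solyc05g014280, which had the third-highest ratio among 8833 genes (rank 3). In A2AS leaf Solyc05g014280 was 99.9-fold (85.1 to 118) higher after heat, rank 1 among 8153 genes, and the other 3 were 18.6-fold to 28.7-fold higher. In WT anthers Solyc11g020330 was 152-fold (129 to 181) higher, rank 6 among 9288 genes, while Solyc05g014280 was 5.02-fold (4.19 to 6.04) higher, rank 69. In anthers labelled A2AS Solyc11g020330 was 122-fold (106 to 141) higher, rank 1 among 9485 genes, and Solyc05g014280 11.98-fold (10.1 to 14.4) higher, rank 44. The same gene thus headed the ranking in A2AS leaf and lay lowest of the 4 in both anther pairs.

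**Figure D2:**
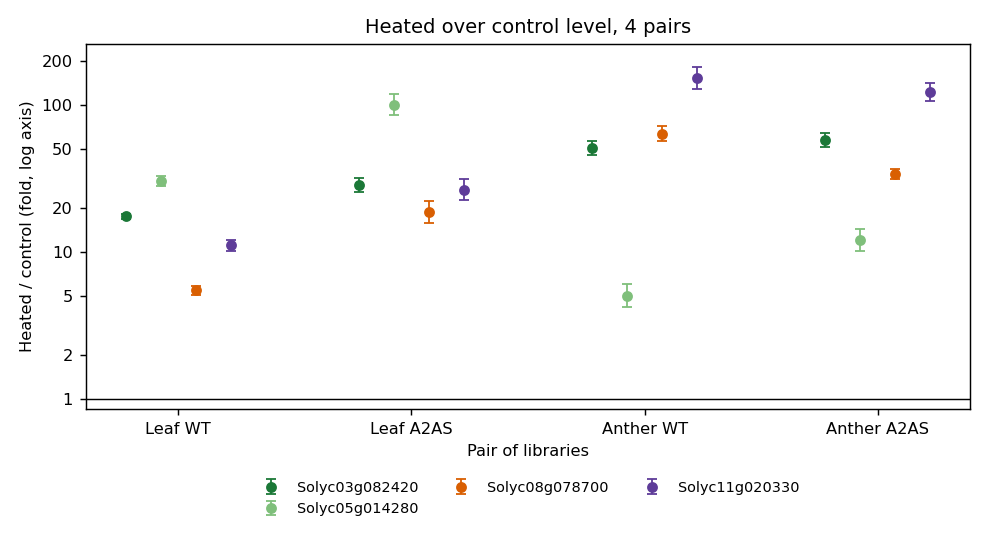
Ratio of the heated to the control level (fold, log axis) in the 4 pairs, with exact 95% counting intervals as bars and a line at 1. Solyc05g014280 has the largest ratio of the 4 in both leaf pairs (30.5-fold and 99.9-fold) and the smallest in both anther pairs (5.02-fold and 11.98-fold).

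The limma fit of heat, blocked by the 4 pairs, called 1.87% of 15220 genes higher and all 4 of these genes. With no replicate plants, its residual is the spread of the 4 pairs' responses. By limma Solyc03g082420 rose by 5.08 ± 0.27 log2 (SE; adjusted p = 0.000775), and Solyc11g020330 by 5.504 ± 0.60 (adjusted p = 0.0114). Solyc08g078700 rose by 4.38 ± 0.51 log2 (limma adjusted p = 0.0147) and Solyc05g014280 by 4.28 ± 0.63 (adjusted p = 0.0265). Each was higher in 4 of 4 pairs. The smallest standard error was thus that of Solyc03g082420 and the largest that of Solyc05g014280. The calls depended on single pairs, and with no expression minimum only Solyc03g082420 was called. Without the A2AS leaf pair only Solyc03g082420 was called (adjusted p = 0.0188 by limma), without the WT leaf pair Solyc05g014280 was not (adjusted p = 0.134), and without the anther pair labelled A2AS it was not (adjusted p = 0.0563).

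Whether the heat ratio differs between the tissues was tested with the genotypes as the only repeats, a fit that called 0.361% of genes with the larger ratio in anther and 0.591% with the larger ratio in leaf. Of the 4 genes 1 was called: the heat ratio of Solyc11g020330 had an anther minus leaf difference of 2.95 ± 0.37 log2 (SE; adjusted p = 0.0379 by limma), larger in anther in both genotypes. The other 3 missed the threshold. Solyc03g082420 differed by 1.25 ± 0.24 log2 (limma adjusted p = 0.0800) and Solyc08g078700 by 2.23 ± 0.56 (adjusted p = 0.136), both larger in anther in each genotype. Solyc05g014280 differed the other way, by −2.87 ± 0.60 log2 (limma adjusted p = 0.0930), with the larger ratio in leaf in each genotype. Without the WT leaf pair the limma adjusted p of Solyc11g020330 was 0.135 and no gene was called, and without the A2AS leaf pair it was 0.0581. Its call was also lost with no expression minimum, with no variance trend and with additive terms. The full fit has only 2 residual degrees of freedom. Leaving out a pair keeps 1 pair in its tissue, so the spread then comes from the other tissue alone. With a pair left out the difference of Solyc11g020330 ranged from 2.37 to 3.54 log2 and that of Solyc05g014280 from −3.68 to −2.06. Solyc03g082420 ranged from 0.917 to 1.59 and Solyc08g078700 from 1.40 to 3.05, so each kept its direction.

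**Figure D3:**
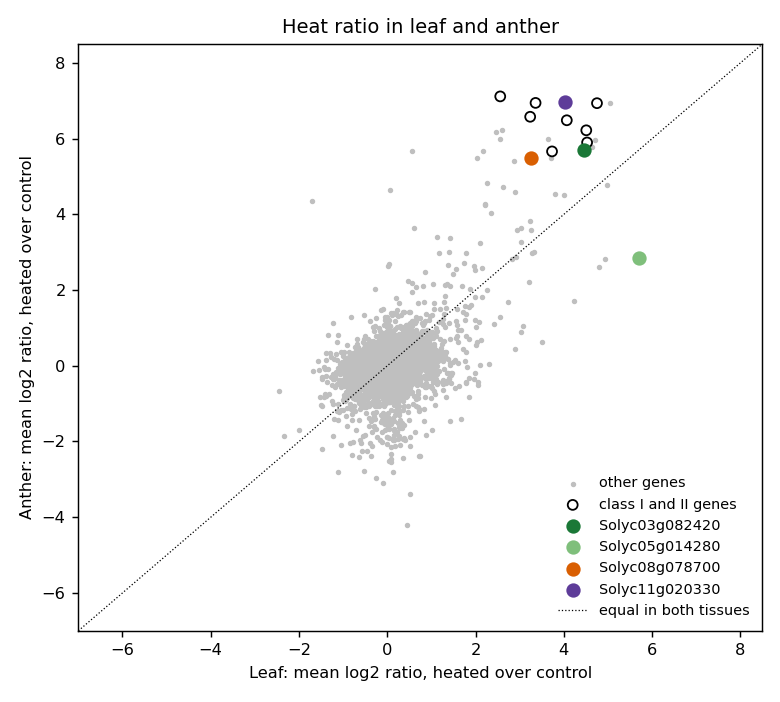
Mean log2 ratio of heated over control in leaf (horizontal) and anther (vertical), each the mean of both genotypes, for 9441 genes averaging 10 CPM or more. Solyc05g014280 lies below the line of equal ratios (5.71 in leaf, 2.84 in anther), while the other 3 genes and the 8 class I and II genes lie above it.

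For Solyc03g082420 in WT the tissue with the larger heat ratio, anther, was not the one with the higher level after heat. In heated WT plants Solyc03g082420 was 3.18-fold (3.13 to 3.24) and Solyc05g014280 28.0-fold (26.1 to 30.1) lower in anther than in leaf. Solyc08g078700 was 3.36-fold (3.26 to 3.47) and Solyc11g020330 2.93-fold (2.86 to 3.003) higher in anther. At least 2-fold differences were common between the tissues, at 17.5% of genes higher and 18.9% lower in heated WT anther. In heated A2AS plants Solyc03g082420 changed sides, at 1.88-fold (1.82 to 1.94) higher in anther, while Solyc08g078700 was 7.20-fold (6.79 to 7.63) and Solyc11g020330 5.33-fold (5.09 to 5.59) higher and Solyc05g014280 9.83-fold (9.31 to 10.4) lower. There 27.5% of genes were higher and 15.3% lower. In control WT all 4 were at least 2-fold lower in anther, from 3.47-fold for Solyc08g078700 to 9.34-fold for Solyc03g082420, where 19.9% of all genes were. In control A2AS only Solyc08g078700 differed at least 2-fold, at 3.95-fold (3.28 to 4.77) higher in anther, where 27.8% of genes were higher and 16.5% lower. The ratios of the other 3 had intervals that include 1. In both A2AS pairs the median of all genes was itself above 0, at 0.47 log2 in control and 0.51 in heated plants. Under median-ratio scaling, which brought it to 0.055 and 0.046, Solyc03g082420 was 1.34-fold higher in heated A2AS anther, and Solyc11g020330 in control A2AS changed from 1.16-fold higher to 1.17-fold lower.

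Over the 4 anther-leaf pairs 1 of the 4 genes was called. Solyc05g014280 was lower in anther by limma, with a difference of −2.60 ± 0.59 log2 (SE; adjusted p = 0.00418), and lower in 4 of 4 pairs, in a fit that called 23.6% of genes lower and 41.6% higher, with a median over all genes of 0.30 log2. Solyc03g082420 differed by −1.01 ± 0.55 log2 (limma adjusted p = 0.138), Solyc08g078700 by 1.18 ± 0.61 (adjusted p = 0.119) and Solyc11g020330 by 0.50 ± 0.60 (adjusted p = 0.483). Leaving out the control WT pair, in which all 4 are lower in anther, added calls for Solyc08g078700 (2.16 log2; limma adjusted p = 5.79e-05) and Solyc11g020330 (1.38; adjusted p = 0.00726). It takes away the pair that goes the other way for these genes, so the added calls are not further evidence. With a pair left out this fit called 8290 to 9478 of all genes. Without the heated A2AS pair, which holds the anther library that goes against its label, Solyc03g082420 was called (−1.64; limma adjusted p = 0.0169) and Solyc11g020330 stood at −0.13.

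The make-up of the 4-gene total shows the same division in levels. The total was 422 CPM in control and 6822 CPM in heated WT leaf, and 69.8 and 4465 CPM in WT anthers. Solyc03g082420 held 61.9% (61.6 to 62.2) of it in heated WT leaf and 29.7% (29.4 to 30.1) in heated WT anthers. Solyc05g014280 held 23.6% (23.3 to 23.8) in heated WT leaf and 1.29% (1.198 to 1.378) in heated WT anthers. Solyc11g020330 went the other way, with 8.74% (8.56 to 8.92) and 39.1% (38.7 to 39.5). In unheated anthers Solyc05g014280 still held 16.4% (14.0 to 19.0) in WT and 10.6% (9.01 to 12.4) in A2AS, well above its share after heat. Heated anthers of both genotypes had close shares for 3 of the 4 genes: Solyc03g082420 held 30.7%, Solyc08g078700 30.6% and Solyc11g020330 36.2% in those labelled A2AS. There, in the library that goes against its label, Solyc05g014280 held 2.47% (2.35 to 2.59), above its share in WT. Heated leaf differed more, since in A2AS leaf Solyc05g014280 held 47.0% (46.2 to 47.8) and Solyc03g082420 31.6% (30.9 to 32.4). These intervals cover counting error only, and no shares were tested.

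**Figure D4:**
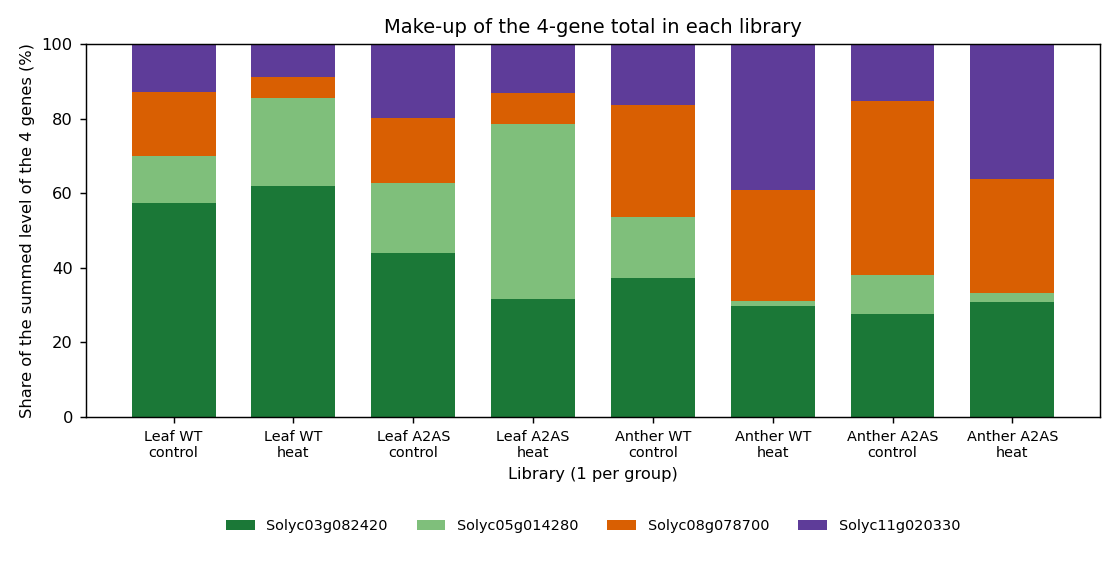
Share of each gene in the summed level of the 4 genes (%, bars add up to 100) in the 8 libraries. Solyc05g014280 takes 23.6% and 47.0% of the total in heated WT and A2AS leaf but 1.29% and 2.47% in heated anthers.

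In leaf all 4 genes stood lower in A2AS than in WT, in control and in heated plants, and whether these ratios differ between control and heated leaf was not tested. The control ratios rest on a single WT leaf library that stood above the other controls. The 4 genes summed to 422 CPM there, 58.8 in A2AS leaf, 69.8 in WT anthers and 87.8 in A2AS anthers. The class I and II genes summed to 551, 99.9, 82.7 and 106 CPM in the same order. That library also enters the WT leaf heat ratios and the tissue differences, and its part in them was not tested beyond leaving out its pair. All 4 were at least 2-fold lower in control A2AS leaf, against a background of 3.13% of genes, and 2 of 4 in heated A2AS leaf, against 7.55%. Solyc03g082420 was 9.39-fold (8.41 to 10.5) lower before heat, and after it 5.70-fold (5.53 to 5.87) lower. In control leaf Solyc08g078700 was 7.01-fold (5.86 to 8.43), Solyc05g014280 4.79-fold (4.01 to 5.76) and Solyc11g020330 4.65-fold (3.90 to 5.57) lower. In heated leaf these 3 were 2.06-fold (1.94 to 2.20), 1.46-fold (1.42 to 1.50) and 1.94-fold (1.85 to 2.04) lower. Lower levels in A2AS leaf were not particular to the 4 genes. The median log2 ratio in control leaf was −2.43 for the 4, −2.36 for class I and −2.58 for class II. After heat it was −0.996, −0.917 and −0.934 in the same order. The median log2 ratio of all genes was itself below 0 in leaf, at −0.21 in control and −0.32 in heated plants, and −0.0024 and −0.015 under median-ratio scaling. Under that scaling all 4 were still at least 2-fold lower in control leaf, but in heated leaf only Solyc03g082420 remained so (4.57-fold). There Solyc08g078700 was at 1.65-fold, Solyc11g020330 at 1.56-fold and Solyc05g014280 at 1.17-fold. The share of all genes was not counted under that scaling. RBCS1, RBCS2 and RBCS3, which encode the small subunit of Rubisco and were the abundant leaf markers, stood the other way, at a sum of 23593 CPM in WT and 38082 CPM in A2AS control leaf, and of 13678 and 31992 CPM in heated leaf. The part of this shift in the leaf ratios was not tested beyond the scalings named.

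In anthers none of the 4 genes differed at least 2-fold between the genotypes, with 0.847% of genes higher and 1.40% lower in control and 0.981% higher and 1.56% lower in heated A2AS anthers. Solyc08g078700 was 1.95-fold (1.69 to 2.27) higher in control A2AS anthers, and Solyc05g014280 was 1.95-fold (1.79 to 2.13) higher in heated anthers labelled A2AS. In control anthers the ratios of the other 3 had intervals that include 1. In heated anthers Solyc03g082420 (1.05-fold), Solyc08g078700 (1.04-fold) and Solyc11g020330 (0.939-fold) were close to 1, and the first 2 stood at 0.994-fold and 0.983-fold under median-ratio scaling.

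**Figure D5:**
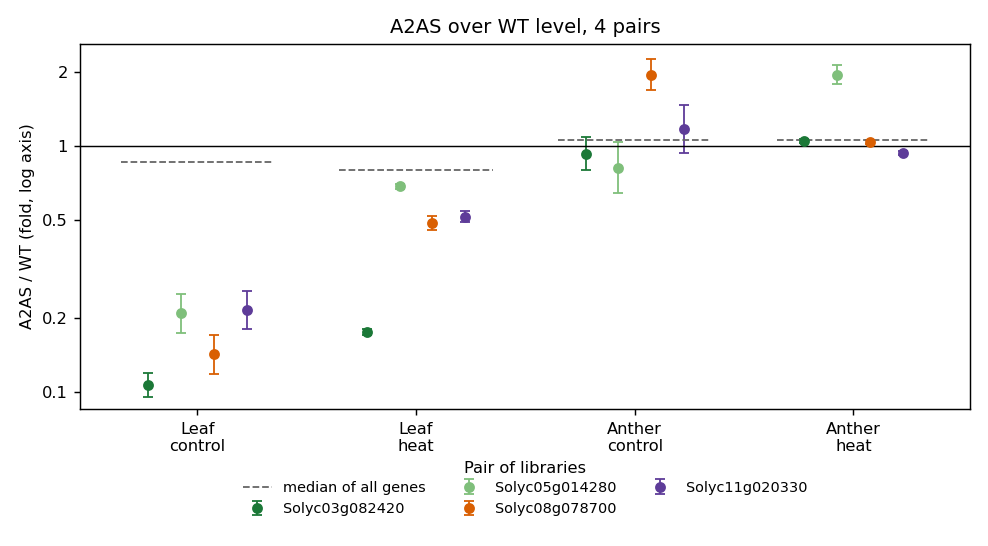
Ratio of the A2AS to the WT level (fold, log axis) in the 4 genotype pairs, with exact 95% counting intervals as bars, a solid line at 1 and dashed lines at the median of all genes. In control leaf the 4 genes lie between 0.106 and 0.215, below the median of all genes, and in anthers they lie between 0.817 and 1.95.

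Over the 4 genotype pairs the limma fit called no gene among 15220 (1313 at an unadjusted p under 0.05), so 0 of the 4. Solyc03g082420, with −1.43 ± 0.52 log2 (SE; limma adjusted p = 0.576), was the only one of the 4 at an unadjusted p under 0.05. Without the heated anther pair, which holds the library that goes against its label, it stood at −1.93 (limma adjusted p = 0.134). Solyc11g020330 differed by −0.74 ± 0.34 (limma adjusted p = 0.596), Solyc08g078700 by −0.69 ± 0.49 and Solyc05g014280 by −0.51 ± 0.41. The test of whether the genotype ratio differs between anther and leaf called 2.01% of genes with the higher ratio in anther, and 1 of the 4 genes. The A2AS to WT ratio of Solyc03g082420 was higher in anther by 2.83 ± 0.24 log2 (SE; limma adjusted p = 0.0268). The other 3 had differences in the same direction that missed the threshold, at 2.36 ± 0.56 for Solyc08g078700 (limma adjusted p = 0.0664), 1.60 ± 0.37 for Solyc11g020330 (adjusted p = 0.0659) and 1.70 ± 0.60 for Solyc05g014280 (adjusted p = 0.120). The median difference of all genes was 0.28 log2 in the same direction. It was 2.03 log2 for the 4 genes, 1.88 for class I and 1.89 for class II. The test also called 1 of 6 class I genes, 0 of 2 class II genes and 1 of 2 HSP100 genes. These were Solyc06g076520 (1.93 ± 0.35; limma adjusted p = 0.0493) and Solyc03g115230 (1.90 ± 0.27; limma adjusted p = 0.0417). Leaving out a pair keeps 1 pair in its tissue, so the spread then comes from the other tissue alone. Calls added when an anther pair was left out are therefore not further evidence. With a pair left out the difference of Solyc03g082420 ranged from 2.496 to 3.17 log2, and each of the 4 genes kept its direction. The call of Solyc03g082420 was lost when either leaf pair was left out. Its call was also lost with no expression minimum, with no variance trend and with additive terms.

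The heat ratios of the 4 genes were larger in A2AS than in WT leaf, from control levels that were lower. For Solyc08g078700 the ratio was 18.6-fold in A2AS against 5.47-fold in WT leaf, while in anthers it was 33.9-fold against 63.8-fold. Over both tissues the fit of this difference called 0 of 15220 genes by limma (228 at an unadjusted p under 0.05), and 0 of the 4. The differences were 0.39 ± 1.12 log2 for Solyc08g078700, 0.42 ± 0.58 for Solyc03g082420, 0.44 ± 1.32 for Solyc11g020330 and 1.42 ± 1.25 for Solyc05g014280 (SE; limma adjusted p = 1.00 for each).

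Across the 8 libraries Solyc08g078700 and Solyc11g020330 had the most similar profiles of the 4, with Pearson's r of log2(CPM + 1) of 0.979, and Solyc05g014280 and Solyc08g078700 the least similar, with 0.594. These values describe 8 libraries that share the split into heated and control plants. Among 9440 other genes averaging 10 CPM or more, the gene most like Solyc11g020330 was Solyc01g102960 (r = 0.999), for which the files give no name, followed by Solyc06g076570, a cytosolic class I gene (0.998). The nearest listed gene to Solyc03g082420 was the class I gene Solyc09g015000 (0.988). The nearest listed gene to Solyc05g014280 was Solyc11g020040, from the list of chloroplast and mitochondrial HSP70 genes (0.985). The gene nearest to Solyc08g078700 was Solyc11g066100 (0.991), also unnamed in the files.

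The other listed chaperones set the 4 genes in context. The 8 cytosolic class I and II genes summed to 551 and 6037 CPM in control and heated WT leaf and to 82.7 and 8217 CPM in WT anthers. The 4 genes thus held 53.1% of the 12-gene total in heated WT leaf and 35.2% in heated WT anthers. By limma all 6 class I and both class II genes rose after heat, with a median difference of 5.06 and 5.21 log2 against 4.73 for the 4 genes and 0.06 for all genes. The highest class I genes by mean level were Solyc09g015000, Solyc06g076520 and Solyc06g076570. Solyc09g015000 went from 146 to 1796 CPM in WT leaf and from 16.2 to 1054 CPM in WT anthers. Solyc06g076520 rose by 5.36 ± 0.38 log2 over the 4 pairs (limma adjusted p = 0.00241). For the difference between tissues 2 of 6 class I and 1 of 2 class II genes were called, all with the larger ratio in anther. Both HSP100 disaggregase genes rose, Solyc03g115230 by 3.24 ± 0.42 log2 (limma adjusted p = 0.0194) and Solyc02g088610 by 1.98 ± 0.27 (adjusted p = 0.0217).

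Of the 2 listed chloroplast and mitochondrial HSP70 genes 1 rose after heat. Solyc11g020040 rose by 3.87 ± 0.49 log2 (SE; limma adjusted p = 0.0175), going from 14.7 to 333 CPM in WT leaf and from 2.74 to 14.9 CPM in WT anthers. It was 9.63-fold lower in control and 3.02-fold lower in heated A2AS leaf than in WT. Its heat ratio was larger in leaf, by 2.13 log2, which missed the threshold (−2.13 ± 0.54, anther minus leaf; limma adjusted p = 0.141). Solyc01g106210 stayed between 52.1 and 161 CPM in all libraries. Neither of the 2 listed BiP genes, chaperones of the endoplasmic reticulum, was called for heat by limma, with 0 at an unadjusted p under 0.05. Solyc03g082920 stood at 125 and 129 CPM in control and heated WT leaf and at 277 and 401 CPM in WT anthers. In anthers labelled A2AS it went from 253 to 538 CPM, 2.13-fold (2.04 to 2.21) higher after heat, past the 2-fold limit for a single pair, and 1.95-fold under median-ratio scaling. Solyc08g082820 stood at 60.8 and 67.1 CPM in WT leaf and at 331 and 253 CPM in WT anthers.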

How the data were processed

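The authors deposited 1 table per library with a value per gene in CPM, called TPM in the tables and without a length term, per the file headers and values. FastQC is named in the submitters' processing notes; the aligner, counting, strand use, annotation and genome build were not given in the sources used here. Between 77.6% and 83.9% of values above 0 were whole multiples of 1 step within 0.001, so no count model was run. Reads for the exact Clopper-Pearson intervals are values divided by that step, rounded. Without molecular identifiers reads are not independent molecules, and the intervals cover counting error only.

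Groups follow the labels' tissue, genotype and treatment. Single pairs were not tested: a gene was called at 2-fold where the pair averaged 10 CPM or more. Across genes, limma 3.58.1 (R 4.3.3) was fitted on log2(CPM + 1), which understates the change of low genes, with a minimum mean of 2 CPM, a variance trend on the mean, and Benjamini-Hochberg adjustment over all genes (threshold 0.05). The fits were run on simulated data with known changes and independent noise, which does not show how they perform on these unreplicated libraries.

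The members and lists were chosen with earlier results of these data known. The reference gene table (41476 rows) holds no ID of the files' form, so list names rest on published nomenclature. Named were the 4 genes, HsfA2, at most 3 genes per list by mean level, and for each of the 4 the 2 nearest genes by Pearson's r, with at most 2 unlisted IDs printed. Alternatives changed the pseudocount, scaling, expression minimum, variance trend, block, fold and pairs used.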

Additional observations from a re-analysis of the deposited data

Results flagged for a closer look

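The heat ratio of Solyc11g020330 differed between the tissues: anther minus leaf came to 2.95 ± 0.37 log2 (SE; adjusted p = 0.0379 by limma), with the larger ratio in anther in both genotypes. The ratio of A2AS to WT of Solyc03g082420 differed between the tissues: anther minus leaf came to 2.83 ± 0.24 log2 (SE; adjusted p = 0.0268 by limma), and it was higher in anther in control and heated plants. This was not particular to the 4 genes, as the median difference was 1.88 log2 for class I and 1.89 for class II, against 2.03 for the 4. Both calls were lost with no expression minimum, with no variance trend, with additive terms and when either leaf pair was left out.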

How the results depend on the processing

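The count of the 4 genes called for heat was 4 under each alternative except with no expression minimum, where it was 1, and when pairs were left out, where it was 1 to 4. The tissue difference in the heat ratio had 1 gene called, against 0 with no expression minimum, 0 with no variance trend, 0 with additive terms, and 0 to 4 when a pair was left out. The difference of the A2AS ratio between tissues likewise had 1, against 0 under those 3 settings and 0 to 4 when a pair was left out. For the tissue effect the count was 1, and 1 to 3 when a pair was left out. The cause was not tested. In the fits of a difference between tissues, leaving out a pair keeps 1 pair in its tissue. Calls added there rest on the spread of the other tissue alone and are not further evidence. For the single pairs, heated A2AS leaf had 2 genes at least 2-fold different, against 1 at 4-fold, 1 under median-ratio scaling and 1 with the 100 most abundant genes taken out of the total. Heated WT anther against leaf had 4, against 1 at 4-fold, and control A2AS anther against leaf had 1, against 0 at 4-fold.

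Some differences that were not called for the gene concerned changed sign when a pair was left out. The heat difference between genotypes ranged from −0.33 to 1.17 log2 for Solyc03g082420, −0.12 to 2.95 for Solyc05g014280, −1.36 to 2.14 for Solyc08g078700 and −1.41 to 2.28 for Solyc11g020330. The A2AS effect of Solyc05g014280 ranged from −0.99 to 0.047, and the tissue effect of Solyc11g020330 from −0.13 to 1.38.

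Among all genes the heat fit called 399, and 255 with a pseudocount of 5, 51 with no minimum, 241 with no trend, 198 with additive terms and 57 to 131 when a pair was left out. Under median-ratio scaling 205 of 467 were higher, against 284 of 399. The heat difference between tissues called 145, and 0, 20, 2 and 0 to 608 under the last 4 of these. The A2AS difference between tissues called 464, of which 306 were higher in anther, against 112 of 573 under median-ratio scaling and 142 of 338 without the 100 most abundant genes. It called 168 with a pseudocount of 5, 853 at a mean of at least 10 CPM, 0 with no minimum, no trend or additive terms, and 0 to 957 when a pair was left out. The tissue fit called 9932, of which 6335 were higher in anther, against 4845 of 9576 under median-ratio scaling, 5400 of 9649 without the 100 most abundant genes, and 6382 at a mean of at least 10 CPM. The fits are blocked by tissue, genotype or treatment; beyond that, no paired analysis was possible because the labels number no replicates and each group has 1 library.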
